A study of Mus musculus with 2 samples.

Results

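The mechanical stress and titin-ankyrin genes of skeletal muscle are 9 genes here: Ankrd1, Ankrd2, Ankrd23, Csrp3, Xirp1, Xirp2, Ky, Igfn1 and Nmrk2. They were taken by symbol from the 55536 annotated genes of the gene tables, and all 9 had counts in both libraries. Some of them were chosen by their gap in read counts between the libraries, so that gap is a description here and was not tested. No label records stretch, load or exercise, so the name says what these proteins are known for and not what was done to the muscle.

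Titin is the giant spring protein that spans the sarcomere from the Z-disc to the M-line. Ankyrin repeat proteins of the MARP family (Ankrd1, Ankrd2 and Ankrd23) bind its elastic N2A region and are also found in the nucleus, and their genes are known to respond to stretch, injury and metabolic stress. Around the Z-disc and the fibre ends, LIM, Xin-repeat and KY proteins tie actin, filamin C and alpha-actinin together, and their loss in mice or humans is known to cause muscle or heart disease.

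The tissue was gastrocnemius, the large calf muscle, from adult female mice aged 8 to 10 months of a cross of 5xFAD and CAST, in 1 group of 2 libraries (library 1 and library 2, biological replicates 1 and 2 of the labels). 5xFAD is a transgenic line that models amyloid disease, with mutant human transgenes known to be driven by the neuronal Thy1 promoter, and CAST is a wild-derived inbred strain. The sources used here do not say whether these mice inherited the transgenes, and there is no control genotype, tissue or treatment. Both libraries carry 1 donor identifier, so whether they came from separate animals is not settled, and the spread between them may be technical in part.

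Total RNA was measured by directional RNA-seq from 300 ng of RNA with ERCC spike-ins. The libraries held 35423706 and 34367627 expected counts in genes. The authors deposited 2 quantifications of the same reads, one by way of a transcript alignment (the first quantifier) and one made directly from reads (the second quantifier); values are those of the first unless the second is named. Protein-coding genes at or above 1 TPM (transcript abundance corrected for transcript length and library size) numbered 9997 and 10181. Fast skeletal muscle showed in the markers, where 9 fast-fibre genes summed to 62681 TPM in library 1 and 73068 TPM in library 2. The sums for 9 slow-fibre genes were 1624 and 2215 TPM. These lists cannot tell gastrocnemius from other skeletal muscles. The median log2 difference of library 1 from library 2 over all genes was -0.17 on TPM and -0.01 after TMM scaling of counts (trimmed mean of M values), so levels are given in TPM and gaps as TMM ratios. With n = 2 libraries, exact sign flipping allows no two-sided p below 0.5, so no gene was tested between them.

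Ankrd23 and Xirp2 were by far the most abundant of the 9 genes in both libraries, and Ankrd1 and Nmrk2 the scarcest. By mean TPM over both libraries the order was Ankrd23, Xirp2, Ankrd2, Csrp3, Ky, Igfn1, Xirp1, Nmrk2 and Ankrd1. Ankrd23 averaged 959 ± 156 TPM (SD, n = 2) and ranked 47th of 22028 protein-coding genes, while Ankrd1 averaged 5.16 ± 2.65 TPM and ranked 6225th. The summed level of the 9 genes was 1485 TPM in library 1 and 1791 TPM in library 2, and Ankrd23 and Xirp2 together made up 82.0% and 86.0% of it. The ranges of Ankrd23 and Xirp2, Xirp2 and Ankrd2, Igfn1 and Xirp1, and Xirp1 and Nmrk2, neighbours in that order, did not overlap. Ankrd2 and Csrp3 overlapped in range but kept their order in both libraries. For Csrp3 and Ky, for Ky and Igfn1 and for Nmrk2 and Ankrd1, the order of levels differed between the libraries. The second quantifier changed part of this order. In library 1 it placed Csrp3 (99.2 TPM) above Ankrd2 (80.7 TPM) and Xirp1 (27.0 TPM) above Igfn1 (26.4 TPM). In library 2 both pairs kept the order given, and the ranges of Igfn1 and Xirp1 overlapped by that quantifier.

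**Figure D1:**
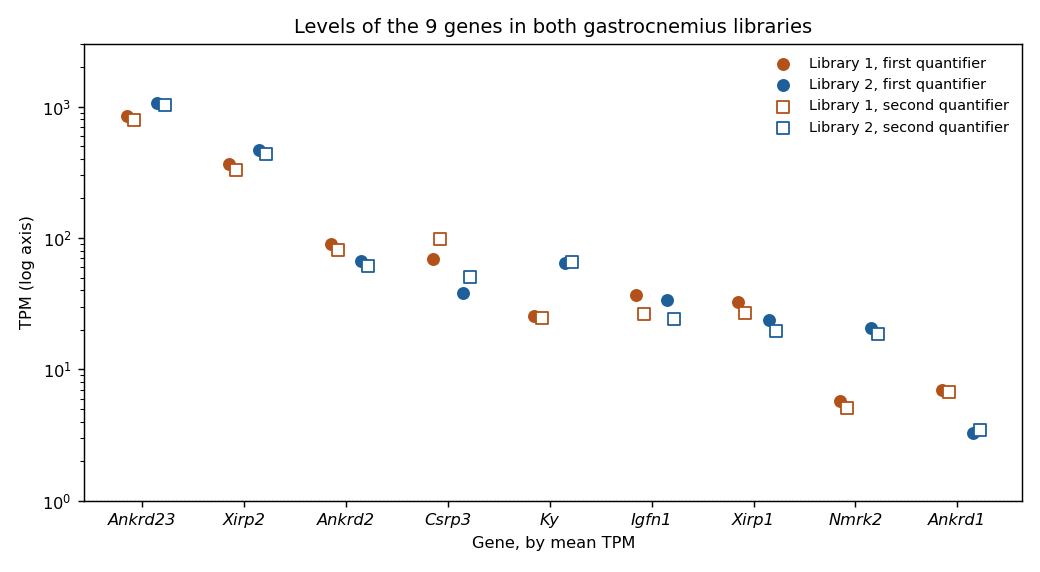
Level of each of the 9 genes in library 1 (orange) and library 2 (blue), in TPM on a log axis, with genes ordered by mean TPM. Filled circles are the authors' first quantifier and open squares the second; Ankrd23 is highest in both libraries, and Nmrk2 and Ky show their higher point in library 2.

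Ankrd23 exceeded Ankrd1 121-fold in library 1 and 326-fold in library 2, and the 3 MARP genes did not all lean the same way between the libraries. The family shares a block of ankyrin repeats, and the annotated transcripts Ankrd1-205, Ankrd2-202 and Ankrd23-201 each hold 4 consecutive exons of exactly 99 coding bases, which is 33 codons, the usual length of an ankyrin repeat. Over these 4 exons (exons 5 to 8, 396 bases), Ankrd1 and Ankrd2 were identical at 65.4% of positions, Ankrd2 and Ankrd23 at 61.6%, and Ankrd1 and Ankrd23 at 59.3%. The seventh exon of each gene is shown because it aligns without gaps and is skipped in the coding transcript Ankrd23-204; capitals mark the 45 bases identical in all 3 genes (mm10, GENCODE M21, gene strand in brackets, 5′ to 3′).
Ankrd1 exon 7, chr19:36115199-36115297 (-): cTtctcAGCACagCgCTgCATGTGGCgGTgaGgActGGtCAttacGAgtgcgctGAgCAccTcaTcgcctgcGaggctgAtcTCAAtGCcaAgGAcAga
Ankrd2 exon 7, chr19:42043753-42043851 (+): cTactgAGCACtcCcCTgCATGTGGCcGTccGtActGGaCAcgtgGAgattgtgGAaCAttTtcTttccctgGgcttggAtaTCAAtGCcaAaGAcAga
Ankrd23 exon 7, chr1:36531909-36532007 (-): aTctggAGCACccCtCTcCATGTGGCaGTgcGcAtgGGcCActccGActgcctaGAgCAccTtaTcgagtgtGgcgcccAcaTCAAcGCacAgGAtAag

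Ankrd23, known as DARP for diabetes-related ankyrin repeat protein (chr1:36530188-36536883, minus strand), had 48793 expected counts in library 1 and 52549 in library 2. Its level was 849 TPM in library 1 and 1069 TPM in library 2. The library ratio, given throughout as log2 of library 1 over library 2 after TMM scaling, was -0.15, with a 95% counting interval of -0.16 to -0.13. Ankrd23 was thus 1.11-fold higher in library 2, and 68.7% of the 6685 genes compared had a smaller absolute ratio. Titin itself stood at 1957 and 2132 TPM, which was 2.30 and 1.99 times the Ankrd23 level in library 1 and library 2.

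Ankrd2, also called Arpp, is known from slow fibres and from stretched muscle (chr19:42036000-42045110, plus strand). It had 2770 counts in library 1 and 1783 in library 2, with levels of 90.2 and 66.4 TPM. Its library ratio was 0.60 (0.51 to 0.68), 1.51-fold higher in library 1. Ankrd1, known as CARP and as a gene induced in the loaded heart and in denervated or injured muscle (chr19:36111961-36120099, minus strand), had 395 counts in library 1 and 162 in library 2. Its level was 7.03 TPM in library 1 and 3.28 TPM in library 2, with a library ratio of 1.25 (0.98 to 1.52), 2.37-fold higher in library 1.

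Within the family, Ankrd23 made up 89.7% of the summed level in library 1 and 93.9% in library 2. Ankrd2 held 9.53% and 5.83%, and Ankrd1 0.743% and 0.288%. The order of the 3 genes was the same in both libraries. The family total was 946 TPM in library 1 and 1139 TPM in library 2.

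The Ankrd23 level is uncertain because a second gene model covers it. Gm42417, annotated as protein-coding on the same strand (chr1:36530193-36539429), shares 2109 of the 2697 exon bases of Ankrd23, or 78.2%. The first quantifier gave Gm42417 2954 counts in library 1 and 2980 in library 2, and 518 and 614 TPM. The second quantifier gave it 182 and 227 TPM. Reads of both models cannot be told apart in the shared bases, and Ankrd23 was the single one of the 9 genes whose expected counts were not whole numbers in the deposited gene tables. With both models summed, the library ratio was -0.14 (-0.16 to -0.12), against -0.15 for Ankrd23 alone. Ankrd23 held most of the summed counts, 48793 of 51747 in library 1 and 52549 of 55529 in library 2. These ratios could therefore differ little. The summed level was 1368 TPM in library 1 and 1683 TPM in library 2, or 977 and 1259 TPM by the second quantifier. By the first quantifier, Gm42417 weighed far more in the summed TPM than in the summed counts. The rank, family shares and comparisons with Ankrd1 and titin given above are for Ankrd23 alone.

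Which transcript carried each MARP gene depended on the quantifier in part. For Ankrd1, Ankrd1-205 (319 residues) led in all 4 readings, with 58.8% of the gene's TPM in library 1 and 71.6% in library 2 by the first quantifier and 73.8% and 91.2% by the second. Ankrd1-201 (315 residues) held 21.5% and 9.45% by the first quantifier and 3.18% and 0.246% by the second. Their coding sequences differ by 12 bases at the end of the eighth exon, shown in capitals because Ankrd1-201 ends that exon before them and so keeps 3, not 4, exons of 99 coding bases.
Ankrd1 exon 8, chr19:36114977-36115075 (-): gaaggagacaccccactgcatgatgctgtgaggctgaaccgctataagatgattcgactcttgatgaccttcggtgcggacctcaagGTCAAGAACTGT

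For Ankrd2 the quantifiers gave opposite pictures. Ankrd2-201 (328 residues) held 73.3% in library 1 and 42.3% in library 2 by the first quantifier, but 0.141% and 2.45% by the second, which placed 99.9% and 97.6% on Ankrd2-202 (332 residues). These transcripts differ only in where the first exon begins, at position 42036038 for Ankrd2-201 and 42036000 for Ankrd2-202 of chromosome 19. The level of the whole gene moved far less with the quantifier, at 80.7 and 61.3 TPM by the second quantifier.

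For Ankrd23 both quantifiers put most of the level on Ankrd23-202 (192 residues), at 76.2% and 74.4% by the first and 61.3% and 60.1% by the second. The first quantifier placed 23.8% and 25.6% on Ankrd23-204 (273 residues), which lacks the exon 7 printed above. The second placed 2.21% and 2.59% there and 36.2% and 37.3% on Ankrd23-203, a non-coding transcript of 663 bases. The longest protein, of 306 residues and coded by Ankrd23-201, was listed at 0 by the first quantifier and at 0.354% and 0.004% by the second. Within each quantifier the Ankrd23 shares of both libraries lay within a few percentage points of each other.

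**Figure D2:**
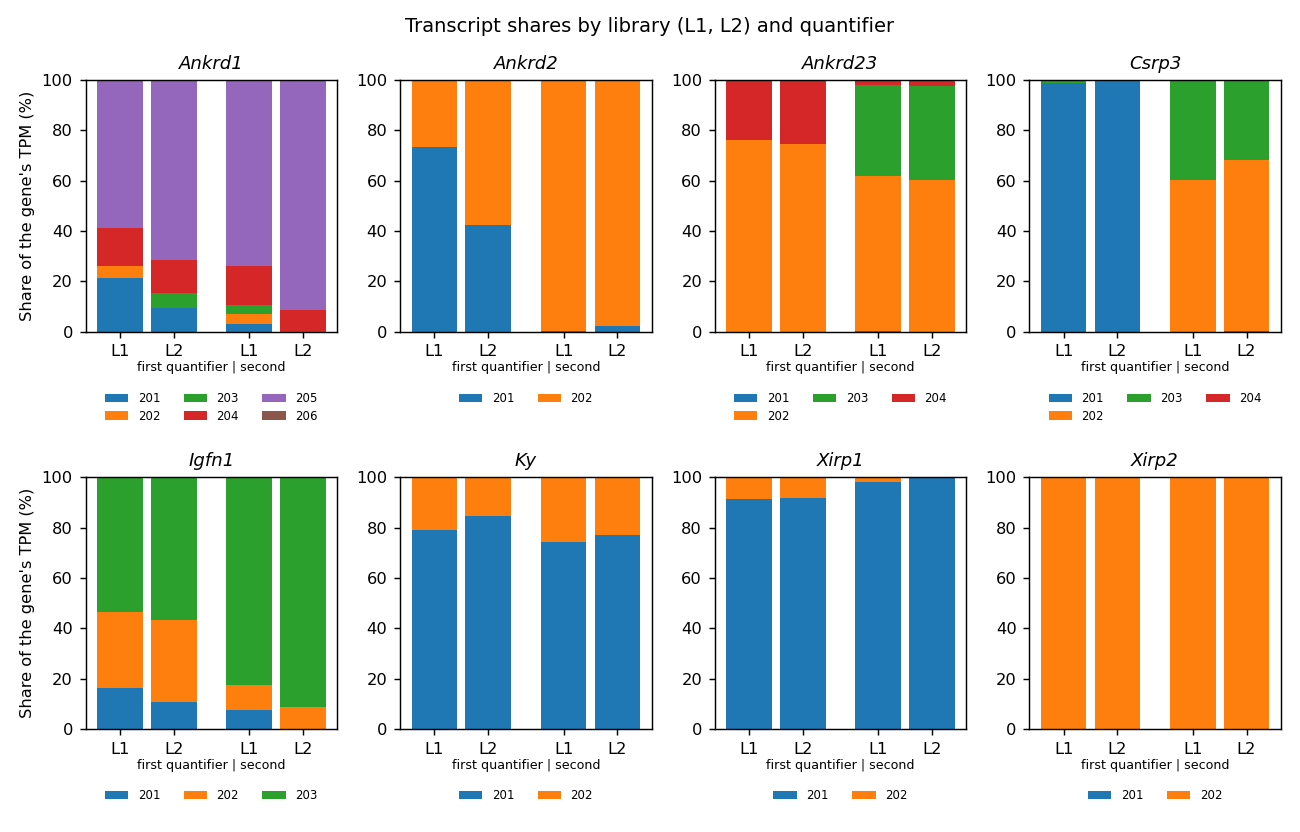
Share of each gene's TPM held by its annotated transcripts, in percent, for library 1 (L1) and library 2 (L2) by the first quantifier (left pair) and the second (right pair); numbers in the legends are transcript suffixes. Ankrd2 and Csrp3 change their leading transcript with the quantifier, whereas Xirp2-202 holds at least 99.9% in every bar; Nmrk2, with 1 transcript, is not drawn.

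Csrp3 encodes the muscle LIM protein, which binds alpha-actinin and telethonin at the Z-disc and is known for cardiomyopathy when mutated (chr7:48830398-48848033, minus strand). It had 1633 counts in library 1 and 775 in library 2, and levels of 69.7 and 37.9 TPM. The library ratio was 1.04 (0.91 to 1.16), 2.05-fold higher in library 1. The second quantifier gave higher levels, 99.2 TPM in library 1 and 50.3 TPM in library 2, with the same lean.

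The quantifiers placed Csrp3 on different first exons. The first put 98.6% of TPM for library 1 and 99.9% for library 2 on Csrp3-201, and none on Csrp3-202. The second put 60.3% and 68.1% of TPM on Csrp3-202, and no more than 0.114% on Csrp3-201. It put 39.6% and 31.7% of TPM on Csrp3-203, a short transcript of 362 bases, which held 12.02% and 8.94% of the counts, against 87.9% and 90.8% on Csrp3-202. Csrp3-201 and Csrp3-202 code for the same 194 residues, so the coding sequence of the main product is alike under either reading. The 250 bases before the RefSeq start site nearest to each first exon are shown because the start in use is what the quantifiers disagree on; the first precedes Csrp3-201 and the second Csrp3-202 (GRCm38.p6, gene strand, 5′ to 3′). Capitals mark E-box matches (CANNTG), 4 in each stretch.
Csrp3 upstream of Csrp3-201, chr7:48848052-48848301 (-): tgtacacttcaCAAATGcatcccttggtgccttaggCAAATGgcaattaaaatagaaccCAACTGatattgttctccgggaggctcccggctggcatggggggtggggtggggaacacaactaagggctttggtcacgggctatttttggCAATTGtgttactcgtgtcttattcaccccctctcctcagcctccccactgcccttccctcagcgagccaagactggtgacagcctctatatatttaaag
Csrp3 upstream of Csrp3-202, chr7:48843672-48843921 (-): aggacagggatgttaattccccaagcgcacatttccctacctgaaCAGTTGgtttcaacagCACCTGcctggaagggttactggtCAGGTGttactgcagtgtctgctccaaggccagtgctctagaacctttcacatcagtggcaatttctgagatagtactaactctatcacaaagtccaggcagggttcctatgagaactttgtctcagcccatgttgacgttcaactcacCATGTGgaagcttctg

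The Csrp3 relatives were far scarcer. Csrp1, the broadly expressed family member, had 9.01 TPM in library 1 and 6.95 TPM in library 2, with a library ratio of 0.54 (0.33 to 0.75). Csrp2, known from smooth muscle, had 2.42 and 3.19 TPM, and on counts a ratio of 0.20 whose interval of -0.45 to 0.85 spans 0. Its TPM and its counts leaned opposite ways, and no direction was detectable for Csrp2 at this depth.

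The Xin-repeat genes encode actin-binding proteins of the myotendinous junction, the Z-disc periphery and, in the heart, the intercalated disc. Xirp2, also called myomaxin (chr2:67446002-67526614, plus strand), had 133099 counts in library 1 and 147206 in library 2, the highest counts of the 9 genes. Its level was 369 TPM in library 1 and 471 TPM in library 2, with a library ratio of -0.19 (-0.20 to -0.17), 1.14-fold higher in library 2. Xirp1, or Xin, which binds filamin C and is known as a marker of fibre damage and repair (chr9:120013755-120023598, minus strand), had 5245 counts in library 1 and 3284 in library 2. Its levels were 32.7 and 23.6 TPM and its library ratio 0.64 (0.57 to 0.70), 1.55-fold higher in library 1.

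The Xin genes therefore leaned opposite ways. Xirp2 exceeded Xirp1 11.3-fold in library 1 and 19.9-fold in library 2, and it held 91.8% and 95.2% of their summed TPM. Each had 1 dominant transcript under both quantifiers. Xirp2-202 (3283 residues) held at least 99.9% of Xirp2 and Xirp1-201 (1132 residues) at least 91.5% of Xirp1 in every library and quantifier. The longer Xirp2-201 (3784 residues) held no more than 0.095%. An antisense gene that shares 168 exon bases with Xirp2, Gm13601, had 0 counts in both libraries.

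Ky and Igfn1 encode partner proteins. The KY protein is a transglutaminase-like protein of the Z-disc that binds filamin C and IGFN1, and its loss gives the kyphoscoliosis mouse, in which muscle fails to grow under load. Ky (chr9:102505750-102546239, plus strand) had 3583 counts in library 1 and 8409 in library 2. Its level was 25.5 TPM in library 1 and 65.1 TPM in library 2, and the library ratio was -1.27 (-1.33 to -1.21), 2.41-fold higher in library 2. Its rank among protein-coding genes was 1852 in library 1 and 824 in library 2.

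Igfn1, whose protein carries immunoglobulin-like and fibronectin type III domains (chr1:135953578-136006342, minus strand), had 6479 counts in library 1 and 5279 in library 2. Its levels were 36.6 and 33.8 TPM, on unscaled TPM the smallest spread of the 9 genes relative to the mean (35.2 ± 1.99 TPM, SD, n = 2). The library ratio was 0.26 (0.20 to 0.31), 1.19-fold higher in library 1. After TMM scaling this gap was larger than those of Ankrd23 (-0.15) and Xirp2 (-0.19). The partner genes thus stood on different sides: Igfn1 was above Ky in library 1, and Ky was above Igfn1 in library 2.

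The coding transcript Ky-201 (661 residues) held 98.5% of Ky counts in library 1 and 98.9% in library 2. Its share of TPM, which weighs short transcripts more, was 79.2% in library 1 and 84.7% in library 2 by the first quantifier and 74.4% and 77.0% by the second. The rest was Ky-202, a retained-intron transcript of 443 bases, which rested on 55.2 and 89.8 expected counts. Ky-201 itself had 3528 and 8319 expected counts, so most of the gap in counts lay on the coding transcript. For Igfn1, the longest transcript Igfn1-203 (2849 residues) led in every reading, at 53.3% and 56.5% by the first quantifier and 82.5% and 91.0% by the second. Igfn1-202, annotated as subject to nonsense-mediated decay, held 30.3% and 32.9% by the first and 10.0% and 8.88% by the second.

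Nmrk2 had the widest gap of the 9 genes. It encodes nicotinamide riboside kinase 2, a striated-muscle enzyme of NAD synthesis that was also described as an integrin-binding protein and is known to rise in energy-stressed heart and muscle. Nmrk2 (chr10:81198170-81202051, minus strand) had 305 counts in library 1 and 956 in library 2. Its level was 5.72 TPM in library 1 and 20.7 TPM in library 2, with a library ratio of -1.69 (-1.88 to -1.50), 3.22-fold higher in library 2. It ranked 5726th in library 1 and 2460th in library 2 among protein-coding genes.

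An antisense gene, Atcayos (chr10:81194609-81210877), shares 270 of the 1854 exon bases of Nmrk2, or 14.6%. Atcayos had 1431 counts in library 1 and 1583 in library 2, with a library ratio of -0.19 (-0.29 to -0.08). The sources used here do not state whether the authors counted by strand, so reads in the shared bases may belong to either gene. The deposited expected counts of Nmrk2 were whole numbers in both libraries, unlike those of Ankrd23, so no fractional sharing of reads showed in them. With both genes summed the ratio was -0.59 (-0.68 to -0.50). Each gene alone was higher in library 2, so the direction of the sum was fixed. The sum does not show which gene the shared reads belong to. The 250 bases before the RefSeq start site of Nmrk2 are shown because Nmrk2 has a single annotated transcript and the widest gap. Capitals mark 2 E-box matches and a TATAAA match at -46 from the RefSeq start (GRCm38.p6, gene strand, 5′ to 3′). The annotated transcript Nmrk2-201 begins inside this stretch, at position 81202051, so the last bases of the stretch belong to its first exon.
Nmrk2 upstream, chr10:81202038-81202287 (-): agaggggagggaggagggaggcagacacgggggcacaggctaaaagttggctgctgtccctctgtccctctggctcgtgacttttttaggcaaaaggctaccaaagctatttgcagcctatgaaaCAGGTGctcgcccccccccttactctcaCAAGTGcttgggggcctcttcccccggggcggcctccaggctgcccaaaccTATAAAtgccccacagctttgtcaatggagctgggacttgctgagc

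The other NAD genes did not show a gap of that size. Of 16 genes for NAD synthesis and use, 13 had a mean of at least 1 TPM. Of these, 3 were higher in library 1 and 10 in library 2, none by 2-fold or more, with a median library ratio of -0.09. Nmrk1, the kinase relative of Nmrk2 found in most tissues, had 1.78 TPM in library 1 and 1.73 TPM in library 2, with a ratio of 0.18 (-0.31 to 0.68). Nampt, the rate-limiting enzyme of the salvage pathway, had 31.6 and 34.3 TPM, with a ratio of -0.10 (-0.16 to -0.03). Nnt, the mitochondrial transhydrogenase and the most abundant of the list, had 32.4 and 44.3 TPM, with a ratio of -0.30 (-0.37 to -0.23).

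Set side by side, 4 of the 9 genes differed between the libraries by 2-fold or more: Ankrd1 and Csrp3 were higher in library 1, and Ky and Nmrk2 in library 2. Among the 6685 genes with a mean of at least 5 TPM and a summed count of at least 100, 33 did so, which is 0.494%. By direction, 25 genes (0.374%) were higher in library 1 and 8 genes (0.12%) in library 2. All 9 genes passed this filter, Ankrd1 narrowly at a mean of 5.16 TPM. Since some were chosen for this gap, nothing is read from their share. The gene nearest to the 2-fold line inside it was Csrp3 at 1.04, and the nearest outside it was Xirp1 at 0.64.

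At 1.5-fold or more, 6 of the 9 genes were apart, against 2.29% of all genes compared. Of these, 4 were higher in library 1 (Ankrd2 and Xirp1 joined), against 1.71% of all genes, and 2 in library 2, against 0.583%. Ankrd23, Xirp2 and Igfn1 had the smallest gaps, and 68.7%, 77.7% and 87.1% of all genes had a smaller absolute ratio than each of them in that order. In direction, 5 genes were higher in library 1 and 4 in library 2, against 47.2% of all genes higher in library 1. The median over the 9 genes was 0.26 and over the 11071 genes with a mean of at least 1 TPM it was -0.01. The lean of each gene was the same under all 6 other scalings and quantifications tried. On TPM alone, the median of all genes shifted to -0.17 by the first quantifier and -0.21 by the second. Csrp3 stood there at 0.88 and 0.98 and Ankrd1 at 1.10 and 0.97. The 2-fold line was thus met by 3 and by 2 of the 9 genes, beside 31 of 6685 and 38 of 6556 genes compared. On TPM, Ankrd2 (0.44 and 0.40) and Xirp1 (0.47 and 0.47) fell below 1.5-fold, and their counting intervals on TMM ratios also reached below it.

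**Figure D3:**
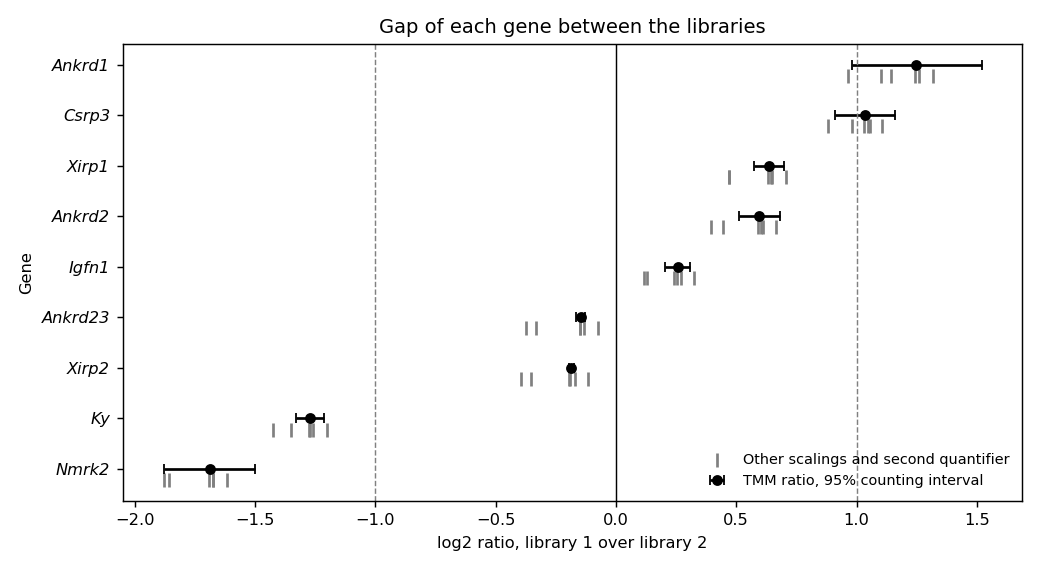
Library ratio of each gene (log2 of library 1 over library 2), where black points are TMM-scaled counts of the first quantifier with 95% counting intervals and grey ticks the 6 other scalings and quantifications. Dashed lines mark 2-fold; Ankrd1 and Csrp3 lie near or past the right line and Ky and Nmrk2 past the left one, and no gene crosses 0.

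**Figure D4:**
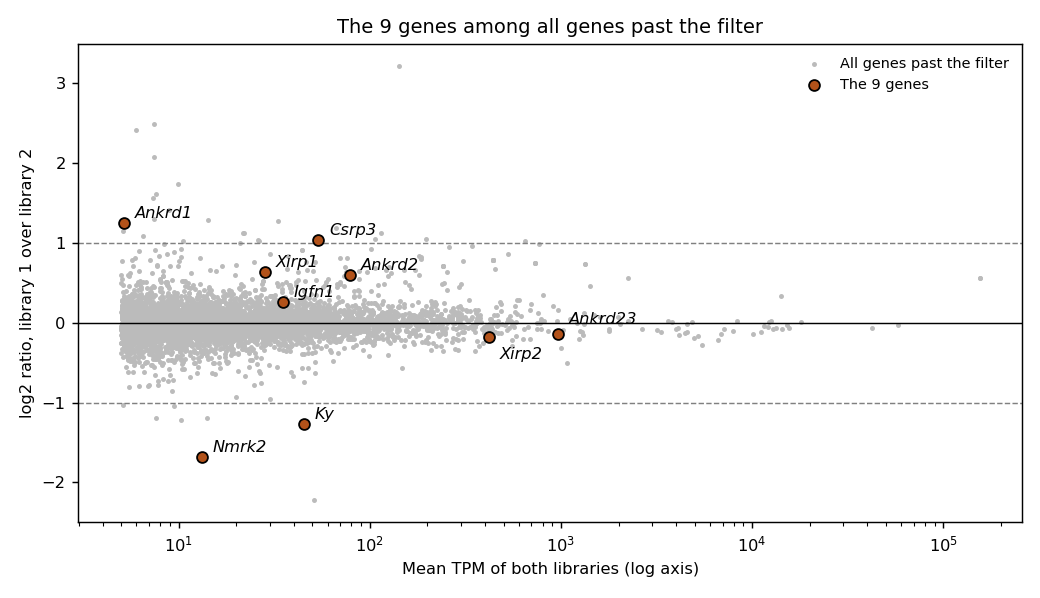
Library ratio (log2 of library 1 over library 2) against mean TPM on a log axis for the 6685 genes past the filter (grey), with the 9 genes in orange. Dashed lines mark 2-fold, past which 33 genes lie, among them Ankrd1, Csrp3, Ky and Nmrk2.

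Promoter sequence was read for the 8 genes with a RefSeq window (10 windows, from 250 bases before to 50 after a start site), and Xirp1 is named only. Both strands were searched for the MCAT motif of TEAD factors (CATTCC), the E-box of myogenic factors (CANNTG), the MEF2 box, the CArG box of serum response factor and the TATA box (TATAAA). MCAT was in 3 of the 10 windows, against 14.7% of 32851 mouse windows. An E-box was in 9 of 10, against 72.3%, and a TATA box in 2 (Ankrd2 and Nmrk2), against 13.6%. A MEF2 box was in 1, that of Xirp2, against 3.19%, and a CArG box in none, against 1.63%. No match of one motif overlapped another motif. These counts describe letters in a window and do not show binding.

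MCAT matches were found in Ankrd1 and Ankrd23 alone, and they are shown as 30-base stretches of the gene strand with the match in capitals. In Ankrd1 they read GGAATG, the reverse complement, at -210 and -123 from the RefSeq start. Both lie inside the annotated first exon of Ankrd1-205 (chr19:36119755-36120099), the leading transcript, which begins further upstream, and so downstream of its start. In Ankrd23 one match lies at -120 from the downstream RefSeq start and one at 37 from the upstream one. The match at 37 lies inside the first exon of Ankrd23-202 (chr1:36536497-36536521), the leading transcript, and inside that of Ankrd23-203. It is thus downstream of the annotated start of both.
Ankrd1 at -210, chr19:36120037-36120066 (-): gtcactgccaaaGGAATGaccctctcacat
Ankrd1 at -123, chr19:36119950-36119979 (-): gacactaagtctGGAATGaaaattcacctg
Ankrd23 at -120, chr1:36535842-36535871 (-): cccagtgggccaCATTCCcagaacggtatt
Ankrd23 at 37, chr1:36536507-36536536 (-): acagcggagtgaaaagCATTCCtggcttct
Ankrd1 and Ankrd23 had library ratios of 1.25 and -0.15 and mean levels of 5.16 and 959 TPM, and a part of the motif in either was not tested.

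Lists of partners and regulators of these 9 proteins had median library ratios from -0.09 to 0.09. Of 15 genes for titin and its partners, 8 were higher in library 1 and 7 in library 2, with a median ratio of 0.01, and Ttn had a ratio of -0.01. Trim63, the MuRF1 ubiquitin ligase that binds titin at the M-line and marks muscle protein breakdown, was the single one 2-fold apart. It had 254 TPM in library 1 and 138 TPM in library 2, with a ratio of 1.04 (1.00 to 1.09). Past the filter on level and count, the lowest ratio was that of Obsl1, an obscurin-like M-band protein, at -0.38 (-0.49 to -0.26).

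Of 14 genes for filamin and Xin partners, 13 reached a mean of 1 TPM, with 6 higher in library 1, 7 in library 2 and a median ratio of -0.02. Flnc, the muscle filamin bound by KY and Xirp1, had 133 TPM in both libraries and a ratio of 0.14 (0.12 to 0.17). Cryab, the small heat shock protein that was the most abundant of the list, had 478 TPM in library 1 and 623 TPM in library 2, with a ratio of -0.21 (-0.26 to -0.17). Past the filter, the highest and lowest ratios were those of Hspb1 (0.23) and Hspb8 (-0.26), also small heat shock proteins. Of the 9 Csrp relatives and partners, 4 were higher in library 1 and 5 in library 2, with a median of -0.04. Actn3, the fast-fibre alpha-actinin and the most abundant of them, had 3787 TPM in library 1 and 4418 TPM in library 2. Its ratio was -0.07, and Ilk, a kinase-like adaptor of integrins, had the lowest ratio past the filter, -0.09.

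Of 14 genes for YAP and TEAD signalling, 12 reached a mean of 1 TPM, with 8 higher in library 1, 4 in library 2 and a median of 0.07. Tead1, the most abundant gene of this list and 1 of the MCAT-binding TEAD factors, had 61.6 TPM in library 1 and 66.8 TPM in library 2, with a ratio of 0.08 (0.04 to 0.12). Ccn1, a YAP target, had 19.9 TPM in library 1 and 13.6 TPM in library 2, with the largest ratio of the list past the filter at 0.72 (0.58 to 0.85). Crim1 had the lowest past the filter at -0.16 (-0.24 to -0.09). Of 7 genes for NF-kB and p53, regulators reported to act with MARP proteins, 4 were higher in library 1 and 3 in library 2, with a median of 0.09. Cdkn1a, the p53 target that stops the cell cycle, had 12.6 TPM in library 1 and 7.95 TPM in library 2, with a ratio of 0.82 (0.64 to 1.01). Ybx1, a partner of Ankrd1 and the most abundant, had 256 and 288 TPM, and Nfkbia, the NF-kB inhibitor, had the lowest ratio, -0.11.

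**Figure D5:**
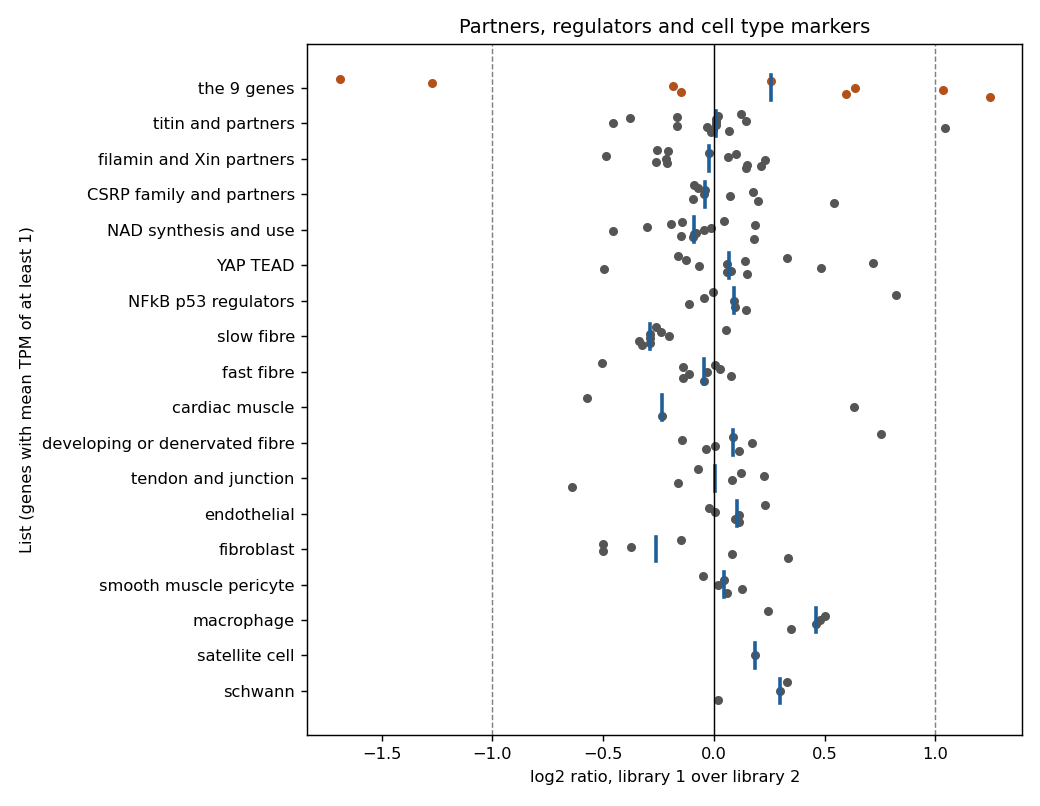
Library ratio (log2 of library 1 over library 2) of every gene with a mean of at least 1 TPM in the 9 genes (orange) and in 17 lists of partners, regulators and markers (grey), with the median of each list as a blue bar. Dashed lines mark 2-fold, which only Trim63 passes among the list genes; 8 of 9 slow-fibre genes lie left of 0 and all 5 macrophage genes lie right of it.

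Markers of fibre types and of other cells were compared between the libraries beside these gaps, and their part in the gaps was not tested. Fewer cells of a type and less RNA per cell cannot be told apart in bulk tissue. Of 9 slow-fibre genes, 1 was higher in library 1 and 8 in library 2, with ratios from -0.34 (Myl3) to 0.06 (Casq2) and a median of -0.29. Their sum on unscaled TPM was 1624 TPM in library 1 and 2215 TPM in library 2. Ankrd2 and Csrp3, known as enriched in slow fibres, were higher in library 1 on TPM and on TMM ratios. Of 9 fast-fibre genes, 3 were higher in library 1 and 6 in library 2, with a median of -0.04, and Casq1, the fast calsequestrin, had the lowest ratio at -0.51.

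Markers of heart muscle, the tissue where Ankrd1 and Csrp3 are best known, were uneven. Myh6, the heart alpha-myosin, had 59.2 TPM in library 1 and 78.2 TPM in library 2. Actc1, the heart actin, had 35.4 and 59.1 TPM, and both were within the range of the 9 genes. The Myh6 level rested on 2505 and 2867 counts, few for its TPM beside slow-fibre Myh7, with 32327 and 39411 counts. Myh7 had 230 and 330 TPM, and TPM weighs short transcripts more. Myh6 transcripts were not read here. Nppb had 0 counts in both libraries, which allows up to 3 counts each, a limit of 0.0847 CPM for library 1 and 0.0873 CPM for library 2 (CPM being the count scaled to library size). Nppa had 4 counts in each library, and 4 of the 7 cardiac markers were below 1 TPM in both. The summed level of the 7 genes was 97.7 TPM in library 1 and 140 TPM in library 2.

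Of 10 markers of developing or denervated fibres, 7 reached a mean of 1 TPM, with 5 higher in library 1, 2 in library 2 and sums of 99.6 and 112 TPM. Tendon and junction markers, of interest for the Xin genes, summed to 67.6 TPM in library 1 and 71.8 TPM in library 2, with 3 of 6 higher on each side. All 5 macrophage genes at a mean of at least 1 TPM were higher in library 1, with a median of 0.46, on 68 to 320 counts per gene and library. The sum over the 7 macrophage markers was 17.1 TPM in library 1 and 15 TPM in library 2. Fibroblast markers summed to 156 and 183 TPM (median -0.26), endothelial to 48.8 and 53.6 TPM (0.10), smooth muscle and pericyte to 125 and 142 TPM (0.04), Schwann cell to 24.3 and 24.0 TPM (0.30) and satellite cell to 11.95 and 12.5 TPM (0.18, from 1 gene). None of these marker genes was 2-fold apart past the filter. However, the filter was passed by 0 of 7 macrophage, 1 of 3 satellite cell and 2 of 4 Schwann cell genes, and the rest could not be called.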

How the data were processed

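Total RNA-seq of gastrocnemius was analysed in 1 group of 2 libraries. The deposited read-me gives mm10 and GENCODE M21; no source used here names the software. Per the file headers, the first quantifier's tables hold expected counts and TPM, and its transcript table the percent of each gene's TPM per transcript; the second quantifier's deposited transcript tables hold estimated counts and TPM. Both share reads that fit several features. Here, expected counts were rounded to whole numbers and scaled by TMM over all genes (edgeR 4.0.16, R 4.3.3; DESeq2 1.42.0 size factors as an alternative), with exact Clopper-Pearson 95% intervals that cover counting error only. Shares were recomputed from TPM. Spike-ins (0.479% and 0.504% of counts) and 26248 entries with a numeric identifier (1 and 0 counts) were left out. Genes compared had a mean of at least 5 TPM and a summed count of at least 100; 2-fold is a log2 ratio of 1. No pseudocount was used. Ratios were checked on simulated data. The 9 genes and all lists were chosen with earlier results of these data known. From each list were named titin, Csrp1, Csrp2, Nmrk1, genes 2-fold apart, the most abundant gene and the largest ratio each way past the filter; Nampt, Flnc and further cell type markers were named after their values were seen. Exon sequences are from GENCODE M21 and promoter windows from RefSeq (GRCm38.p6). CAST alleles were counted against mm10, whose effect was not tested.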

Additional observations from a re-analysis of the deposited data

How the results depend on the processing

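No paired analysis was possible because both libraries belong to 1 group, and leaving out a library leaves no ratio; all 9 genes reached 1 TPM without replicate 1 and without replicate 2 (9 to 9). In 54 alternative ratios of the 9 genes none changed sign, but 21 lay outside the counting interval of the TMM ratio. On deposited TPM, 14 of 6685 genes were 2-fold higher in library 1 and 17 in library 2. Of the 9 genes, 1 (Ankrd1) was higher in library 1 by that much. On second-quantifier TPM, 14 of 6556 genes were 2-fold higher in library 1 and 24 in library 2, a count chosen after seeing the data. There 2 of the 9 genes were apart, 0 of them higher in library 1. The median of the 9 genes, 0.26 in the report, was 0.33 by spike-ins, 0.12 on deposited TPM and 0.13 on second-quantifier TPM. With a mean of at least 1 TPM and a summed count of at least 20, 136 of 11014 genes were apart (99 and 37 by direction). With a summed count of at least 100 and no TPM filter, 87 of 11213 were (67 and 20). More genes entered under both filters. At 1.5-fold, 153 of 6685 were apart (114 and 39), with 4 of the 9 genes higher in library 1. Of 135 alternative list medians, 113 kept their sign. By the second quantifier, 7 of 8 leading transcript shares moved beyond the library spread, all but that of Xirp2-202. Low counts limit Ankrd1 and Nmrk2 most, and with 1 degree of freedom the spread between animals is unknown.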

Other observations

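Ankyrin repeat genes beyond the titin-binding family were also present in the muscle. Of 47 protein-coding genes whose symbol begins with Ankrd, 26 had a mean of at least 1 TPM, and Ankrd23 alone held 69.8% of their summed mean TPM. Next by mean TPM were Ankrd40, at 81.6 TPM in library 1 and 96.9 TPM in library 2, and Ankrd9, at 78.1 and 80.1 TPM. Ankrd2, at 90.2 and 66.4 TPM, was above both of them in library 1 and below both in library 2. Of the 15 that passed the filter on level and count, Ankrd1 was the single one 2-fold apart, and Ankrd40 and Ankrd9 had library ratios of -0.12 and 0.15. These genes share a repeat and not a family role, and the symbols were grouped by name after the data were seen.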
